A study of Mus musculus with 12 samples.

Results

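A set of 9 genes that mark tissue macrophages was followed through sorted dendritic cells (DCs) of the mouse small intestine, chosen by name and matched to their Ensembl identifiers in the count files. They were the complement genes *C1qa*, *C1qb* and *C1qc*, the surface receptors *Mertk*, *Fcgr1*, *Cd163* and *Cd14*, the transcription factor *Maf* and the lysozyme gene *Lyz2*. All 9 of the 53801 listed identifiers were found, and all 9 were among the 20580 genes that passed the filter on low counts. RNA-seq libraries came from CD103+CD11b- and CD103-CD11b+ DCs, sorted in small numbers from wild-type (WT) mice and from *Cbfb*F/F: CD11c-Cre mice, called cKO below as their labels do. Each of the 4 groups held 3 libraries, and the paper states that the samples were sorted from different mice. The mice were of a mixed background, the labels used here give no age, no agent was given to any group, and it is not stated for these libraries whether the WT mice carried the CD11c-Cre transgene. This transgene expresses Cre under *Itgax* regulatory sequences and is therefore active in CD11c+ cells in general, macrophages of the gut included.

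Macrophages and DCs of the gut wall share many surface markers, among them CD11c and MHC-II, and sorts separate them mostly by CD64, the high-affinity IgG receptor encoded by *Fcgr1*. *C1qa*, *C1qb* and *C1qc* encode the chains of C1q, the molecule that opens the classical complement pathway and also coats dying cells for uptake. MerTK is the receptor through which macrophages take up apoptotic cells, CD163 takes up haemoglobin bound to haptoglobin, CD14 hands bacterial lipopolysaccharide to its signalling receptor, and c-Maf is a factor that drives macrophage programmes. Cbfβ is the partner with which Runx transcription factors form heterodimers, so the cKO asks what Runx complexes do in these cells.

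The 3 C1q genes lie side by side on the minus strand of chromosome 4 (GRCm38), with *C1qb* (ENSMUSG00000036905) at chr4:136880129-136886187, *C1qc* (ENSMUSG00000036896) at chr4:136889804-136893065 and *C1qa* (ENSMUSG00000036887) at chr4:136895917-136898803. *Fcgr1* (ENSMUSG00000015947) lies at chr3:96282909-96293969 on the minus strand. Promoter sequence from RefSeq (GRCm38.p6) was matched for 6 of the 9 genes. *C1qb* and *Fcgr1* are shown because both differed between the DC subsets in each genotype and their windows lie wholly outside the gene. Each run holds the 250 bases before the transcript start, 5′ to 3′ on the strand of the gene. Capitals mark GAGGAA, the core letters bound by PU.1, the factor that macrophages and DCs depend on, or its reverse complement.
*C1qb*, chr4:136886201-136886450, minus strand: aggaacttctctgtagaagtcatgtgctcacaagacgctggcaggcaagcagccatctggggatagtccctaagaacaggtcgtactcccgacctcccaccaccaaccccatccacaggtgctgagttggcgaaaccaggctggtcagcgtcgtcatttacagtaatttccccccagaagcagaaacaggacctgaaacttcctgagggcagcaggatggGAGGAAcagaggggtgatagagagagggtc
*Fcgr1*, chr3:96293970-96294219, minus strand: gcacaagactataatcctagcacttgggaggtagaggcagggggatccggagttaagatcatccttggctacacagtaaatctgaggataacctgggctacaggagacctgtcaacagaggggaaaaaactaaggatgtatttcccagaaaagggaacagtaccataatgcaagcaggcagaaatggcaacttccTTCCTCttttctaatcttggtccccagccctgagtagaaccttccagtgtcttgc

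Both strands of each window were searched for GAGGAA and for the Runx letters TGTGGT and TGCGGT, which share no overlap with GAGGAA here and are in neither of the windows shown. The *C1qb* match begins 30 bases before the transcript start. The *C1qc* window held both GAGGAA and TGTGGT, the *Lyz2* window held TGTGGT only, and the *Mertk* and *Cd163* windows held neither. Of 32851 promoter windows of the same length in the table, 23.3% held GAGGAA and 18.6% held 1 of the Runx letter sets, so these matches are common.

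Between 2161929 and 5863484 reads per library were counted on genes, so that 3 counts, the floor used here, correspond to between 0.485 and 1.53 CPM (read counts scaled to a common library size by TMM). The summed count of *Cbfb* over all its exons gave means of 214 and 242 CPM in WT and cKO CD103+CD11b- DCs and of 188 and 207 CPM in WT and cKO CD103-CD11b+ DCs. The gene-level count therefore does not separate the genotypes or show deletion of the flanked part. In these data each direction drawn between genotypes rests on the labels. Outside them, the paper assessed recombination at *Cbfb* by genomic PCR in small intestinal DCs, and it reports fewer CD103+CD11b+ DCs in cKO mice. Genes chosen as checks of the DC label were present in each library. *Zbtb46*, a factor of conventional DCs, ranged from 203 to 364 CPM over the 12 libraries. *Flt3*, the receptor of the DC growth factor Flt3L, ranged from 216 to 547 CPM. *Flt3* was lower in CD103-CD11b+ than in CD103+CD11b- DCs, with a log2 fold change of -0.70 in WT and -0.81 in cKO mice. The sort markers followed the gates, with *Itgam* (CD11b) between 3.66 and 10.98 CPM in CD103+CD11b- libraries and between 77.9 and 222 CPM in CD103-CD11b+ libraries. Replicate 2 of the cKO CD103+CD11b- DCs stood apart in the genes described here, and the values without it stand beside the results that it decides.

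The C1q genes were near 0 in WT CD103+CD11b- DCs and well above it in WT CD103-CD11b+ DCs. *C1qa* was at 1.37, 0.686 and 1.62 CPM in the 3 WT CD103+CD11b- libraries and at 28.4, 37.6 and 14.8 CPM in the 3 WT CD103-CD11b+ libraries. *C1qb* went from 1.03, 0.458 and 0.323 CPM to 46.6, 57.0 and 21.2 CPM in the same groups. *C1qc* went from 0.342, 0.915 and 0.323 CPM to 37.8, 52.6 and 14.5 CPM. For each of the 3 chains, the lowest CD103-CD11b+ library lay far above the highest CD103+CD11b- library, while replicate 3 was the lowest of the CD103-CD11b+ libraries. In the WT CD103+CD11b- group the whole C1q signal was 8, 9 and 14 counts.

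*Fcgr1* behaved alike at a lower level. It had 1, 0 and 3 counts in the WT CD103+CD11b- libraries, which is at or under the floor in each, and 6.07, 11.7 and 4.95 CPM in the WT CD103-CD11b+ libraries. The study defined gut DCs by a gate on CD45+ cells that excludes CD64, which would also remove epithelial and Paneth cells, and the methods for the sequenced cells name only the CD103 and CD11b subsets. *Cd163* (ENSMUSG00000008845, chr6:124304656-124330527, plus strand) was at 2.05, 0.915 and 0.323 CPM in WT CD103+CD11b- DCs and at 7.05, 16.7 and 7.27 CPM in WT CD103-CD11b+ DCs, again without overlap.

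*Mertk* (ENSMUSG00000014361, chr2:128698956-128802894, plus strand) had no count in replicates 1 and 2 of the WT CD103+CD11b- DCs but 75 counts, or 12.1 CPM, in replicate 3. The WT CD103-CD11b+ libraries held 22.7, 62.3 and 47.1 CPM. *Maf* (ENSMUSG00000055435, chr8:115682942-115707794, minus strand) was uneven within the WT CD103-CD11b+ group, at 5.48, 80.0 and 8.73 CPM, against 5.47, 4.12 and 15.2 CPM in the WT CD103+CD11b- group. Only replicate 2 was high, and the groups overlapped. The summed level of 10 T cell genes was also highest in that WT CD103-CD11b+ library, at 25.3, 192 and 66.6 CPM in replicates 1 to 3, and its part in the *Maf* value was not tested. *Maf* shares part of its exons with *Gm15655*, and reads there are not assigned to either gene by this kind of counting, so its level may be understated.

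*Cd14* (ENSMUSG00000051439) and *Lyz2* (ENSMUSG00000069516, chr10:117277331-117282321, minus strand) were present in both subsets. *Cd14* was at 8.89, 13.3 and 17.8 CPM in WT CD103+CD11b- DCs and at 18.2, 38.0 and 20.1 CPM in WT CD103-CD11b+ DCs, which do not overlap but almost meet. *Lyz2* was at 289, 194 and 170 CPM against 254, 301 and 295 CPM, with overlap. Neither gene set the WT subsets apart in the manner of C1q.

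**Figure D1:**
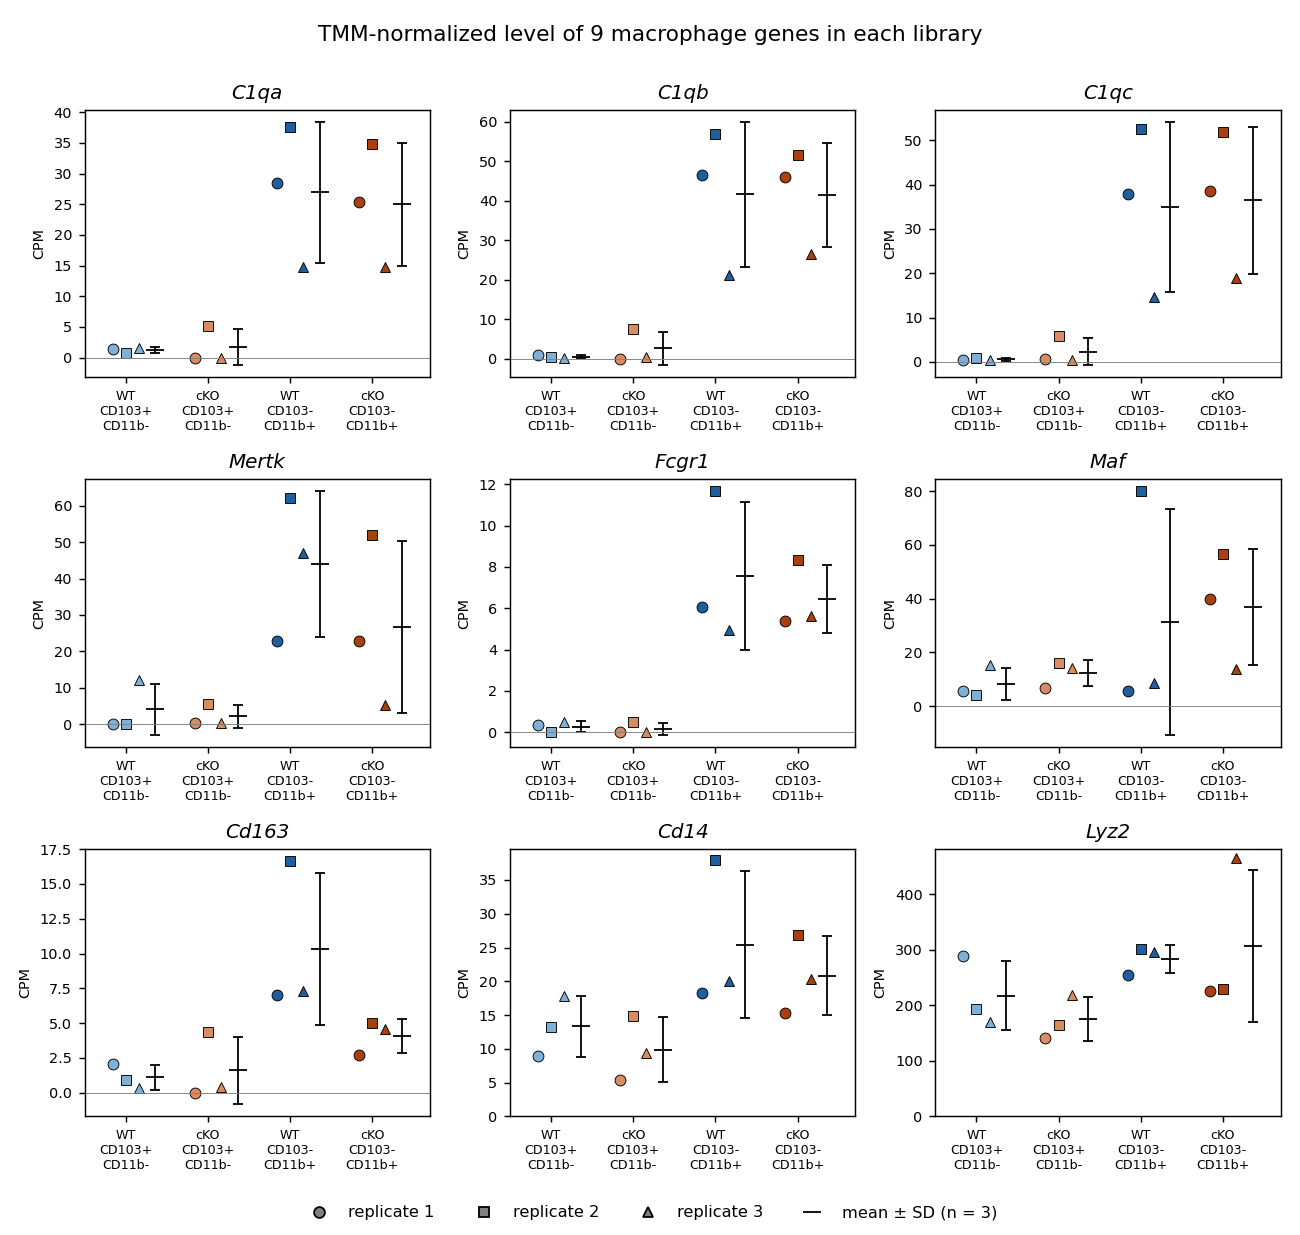
Level of each of the 9 genes in CPM (linear axis) in the 12 libraries, with 1 point per library, its shape giving the replicate number, and the mean ± SD of the 3 libraries of a group beside the points. *C1qa*, *C1qb*, *C1qc* and *Fcgr1* are near 0 in CD103+CD11b- DCs apart from replicate 2 of the cKO group for the C1q genes, whereas *Lyz2* is above 141 CPM in each library.

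In WT mice, 5 of the 9 genes were called higher in CD103-CD11b+ than in CD103+CD11b- DCs, at an adjusted p (FDR) under 0.05 and a fold change over 1.3 in edgeR's quasi-likelihood test, and none lower. Over all genes tested, 11.8% were called higher and 7% lower in this comparison. These shares depend on single libraries too: 2419 genes were called higher and 1441 lower, against 679 and 731 without replicate 2 and 867 and 805 without replicate 1 of the WT CD103+CD11b- DCs. The log2 fold change was 6.19 for *C1qb* (SE 1.11, adjusted p = 0.00466), 5.97 for *C1qc* (SE 0.95, adjusted p = 0.00249) and 4.41 for *C1qa* (SE 1.01, adjusted p = 0.0146). It was 4.56 for *Fcgr1* (SE 0.82, adjusted p = 0.00466) and 3.32 for *Cd163* (SE 1.04, adjusted p = 0.0471). The other 4 did not pass. *Mertk* differed by 3.29 (SE 1.32, adjusted p = 0.104), *Maf* by 1.87 (SE 0.94, adjusted p = 0.185), *Cd14* by 0.91 (SE 0.42, adjusted p = 0.147) and *Lyz2* by 0.38 (SE 0.29, adjusted p = 0.388). In 7 of the 9 genes every CD103-CD11b+ library was above every CD103+CD11b- library, which held for 21.4% of all genes tested.

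Single libraries decided some of these calls. *Cd163* was lost without any 1 of the 6 WT libraries (adjusted p from 0.0534 to 0.144) and without replicate 1 or 2 of the cKO CD103-CD11b+ DCs (adjusted p = 0.0629 and 0.0578), which enter the shared estimate of the spread. *C1qa* was lost without replicate 1 (adjusted p = 0.0545) or replicate 2 (adjusted p = 0.0657) of the WT CD103+CD11b- DCs, which left 3 called genes each time. Without replicate 3 of that group, *Mertk* had no count in either remaining library, was at least 51.4-fold higher in the CD103-CD11b+ mean than the level of 3 counts a library, and was called (adjusted p = 0.0134). *C1qb*, *C1qc* and *Fcgr1* were called without each library in turn.

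The cKO mice showed a subset difference in the same direction for C1q and *Fcgr1*. *C1qa* was at 0, 5.12 and 0 CPM in the cKO CD103+CD11b- libraries and at 25.4, 34.7 and 14.8 CPM in the cKO CD103-CD11b+ libraries. *C1qb* went from 0, 7.57 and 0.391 CPM to 46.0, 51.6 and 26.5 CPM, and *C1qc* from 0.666, 5.86 and 0.391 CPM to 38.6, 51.9 and 18.9 CPM. *Fcgr1* had 0, 2 and 0 counts against 5.39, 8.33 and 5.61 CPM. The groups did not overlap in any of the 4 genes, and replicate 2 was the only cKO CD103+CD11b- library with more than 3 C1q counts.

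The remaining genes were closer together in cKO mice. *Cd163* was at 0, 4.39 and 0.391 CPM in CD103+CD11b- and at 2.69, 4.997 and 4.59 CPM in CD103-CD11b+ DCs. *Mertk* was at 0.222, 5.61 and 0.391 CPM and at 22.9, 52.1 and 5.10 CPM. *Maf* was at 6.88, 16.1 and 14.1 CPM and at 39.7, 56.6 and 13.8 CPM. These 3 overlapped between the subsets, *Cd163* and *Mertk* in that replicate 2 of the CD103+CD11b- DCs exceeded the lowest CD103-CD11b+ library. *Cd14* ranged from 5.33 to 14.9 CPM and from 15.3 to 26.9 CPM, and *Lyz2* from 142 to 218 CPM and from 225 to 465 CPM, both without overlap. In 6 of the 9 genes, then, the cKO groups did not overlap, all 6 higher in CD103-CD11b+ DCs, which held for 18.4% of all genes tested.

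Of the 9 genes, 4 were called higher in cKO CD103-CD11b+ DCs and none lower, where 9.26% of all genes tested were called higher and 6.81% lower. The log2 fold change was 3.91 for *C1qc* (SE 0.80, adjusted p = 0.00686), 3.89 for *C1qb* (SE 0.92, adjusted p = 0.0147) and 3.77 for *C1qa* (SE 0.97, adjusted p = 0.0227). For *Fcgr1* the fitted value was 4.96 (SE 0.89, adjusted p = 0.00334). Its 2 counts in the CD103+CD11b- group give a ratio of 36.8 with a 95% counting interval from 9.81 to 310, which covers counting error only. *Mertk* differed by 3.62 (SE 1.43, adjusted p = 0.108), *Maf* by 1.59 (SE 0.93, adjusted p = 0.262), *Cd163* by 1.28 (95% interval from -0.92 to 3.49, adjusted p = 0.411), *Cd14* by 1.08 (SE 0.43, adjusted p = 0.110) and *Lyz2* by 0.81 (SE 0.29, adjusted p = 0.0832). When same-numbered cKO libraries were paired (replicate block within genotype), 7 genes were called higher, where 12.9% of all genes were in this fit, with *Mertk* at 3.96 (adjusted p = 0.0416), *Cd14* at 1.14 (adjusted p = 0.0269) and *Lyz2* at 0.75 (adjusted p = 0.0307) in addition.

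Replicate 2 of the cKO CD103+CD11b- group was picked after its values were seen, as the highest of that group for C1q, *Fcgr1* and *Cd163*. A wider subset difference without it was thus fixed in advance. The values below show only how far the results rest on it. Without replicate 2, *C1qa* had no count in either library left. It was at least 27.2-fold higher in CD103-CD11b+ DCs than the level of 3 counts a library, and *Fcgr1* at least 7.01-fold higher. The *Fcgr1* value is a lower bound and lies under its ratio of 36.8 over all cKO libraries. The 2 libraries left held 1 count of *C1qb*, 4 of *C1qc* and 1 of *Cd163*. This gives ratios of 315 (95% counting interval from 56.3 to 12480), 71.0 (from 27.5 to 262) and 27.9 (from 4.75 to 1129). These intervals cover counting error only. *Cd163* was then called (adjusted p = 0.0296). Without replicate 3 of that group only *C1qc* and *Fcgr1* were called (adjusted p = 0.0590 for *C1qa* and 0.0503 for *C1qb*). *C1qa* was also lost without replicate 1 of that group (adjusted p = 0.0530) and without replicate 1 or 2 of the cKO CD103-CD11b+ DCs (adjusted p = 0.0510 and 0.0650).

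**Figure D2:**
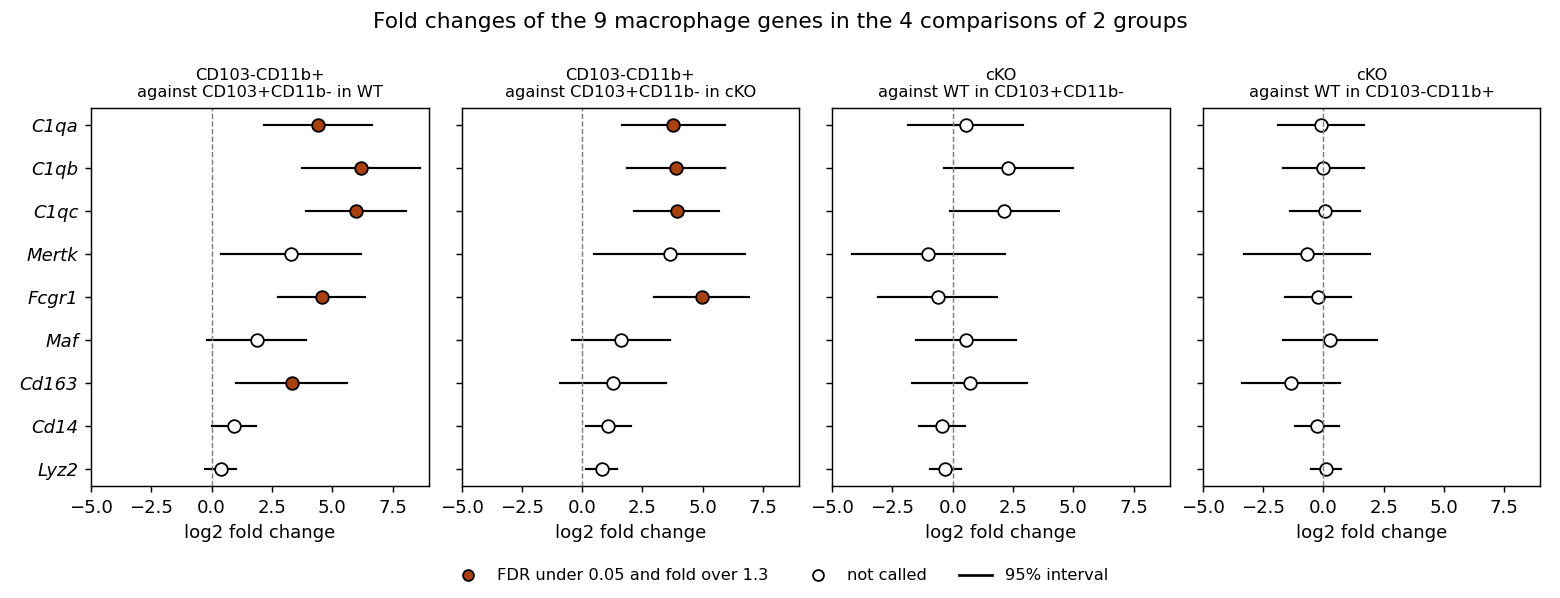
Log2 fold change of each gene in the 4 comparisons of 2 groups, with its 95% interval from edgeR, filled where the gene was called. C1q and *Fcgr1* are called in both subset comparisons, *Cd163* in WT only, and no gene is called between cKO and WT in either subset.

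Between the genotypes none of the 9 genes was called. In CD103-CD11b+ DCs 0 of 9 were called between cKO and WT, where 1.61% of all genes were. None had an unadjusted p under 0.05 in the edgeR model of all 12 libraries, as 17.4% of all genes did, and DESeq2 called none. The *C1qa* mean was 27.0 ± 11.5 CPM in WT and 25.0 ± 9.98 CPM in cKO DCs (SD, n = 3), a log2 fold change of -0.10 with a 95% interval from -1.88 to 1.69. The *C1qb* mean was 41.6 ± 18.4 and 41.4 ± 13.2 CPM, a log2 fold change of 0.00 with an interval from -1.68 to 1.68. The *C1qc* mean was 35.0 ± 19.2 and 36.4 ± 16.6 CPM, a log2 fold change of 0.07 with an interval from -1.39 to 1.53. The means of C1q nearly coincided, yet the intervals leave room for a difference of over 2-fold in either direction.

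*Cd163* was the 1 gene of the 9 in which the genotypes did not overlap in CD103-CD11b+ DCs. Its mean was 10.3 ± 5.48 CPM in WT and 4.09 ± 1.23 CPM in cKO libraries (SD, n = 3), a log2 fold change of -1.33 (SE 0.93, adjusted p = 0.482), and the highest cKO library stood at 4.997 CPM against the lowest WT library at 7.05 CPM. Of all genes tested, 10.3% were lower in this sense. In a fit to these 6 libraries alone its unadjusted p was 0.0307 (adjusted p = 0.323). *Lyz2* differed by 0.11 (95% interval from -0.53 to 0.75), *Cd14* by -0.28 (from -1.19 to 0.63), *Fcgr1* by -0.21 (from -1.58 to 1.15), *Maf* by 0.26 (from -1.69 to 2.21) and *Mertk* by -0.69 (from -3.31 to 1.92), all with adjusted p above 0.76 in edgeR's test. The *Maf* value rests on WT replicate 2: with that library left out it was 2.40 (SE 0.70, adjusted p = 0.161, unadjusted p = 0.0065). *Maf* was at 39.7 CPM in cKO replicate 1 against 5.48 CPM in WT replicate 1, whereas *Mertk* was at 5.10 CPM in cKO replicate 3 against 47.1 CPM in WT replicate 3. The summed level of 10 T cell genes was 220, 85.4 and 35.7 CPM in cKO replicates 1 to 3 of this subset. In the WT replicates it was 25.3, 192 and 66.6 CPM, and its part in the *Maf* values was not tested.

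In CD103+CD11b- DCs 0 of 9 were called between cKO and WT as well, where 1.02% of all genes were. None had an unadjusted p under 0.05 in the edgeR model of all 12 libraries, as 10.5% of all genes did. Without a filter that model gave 0.0317 for *C1qc* and 0.0433 for *C1qb*, and with the replicate block 0.0181 for *C1qc*, and none was called. Similarly, DESeq2, which called none, gave an unadjusted p of 0.0255 for *C1qc* and of 0.0413 for *C1qb*. The edgeR log2 fold change was 2.14 for *C1qc* (SE 1.03, adjusted p = 0.523) and 2.30 for *C1qb* (SE 1.21, adjusted p = 0.590). Both rest on replicate 2 of the cKO DCs: without it the log2 fold change was 0.09 for *C1qc*, and *C1qb* had 1 count in the 2 cKO libraries left against 7 in the 3 WT libraries. *Lyz2* differed by -0.32 (95% interval from -0.96 to 0.33) and *Cd14* by -0.45 (from -1.38 to 0.49). For the difference of the genotype effect between the subsets 0 of 9 were called, against 0.651% of all genes, by edgeR or by DESeq2. None had an unadjusted p under 0.05 in the model of all 12 libraries, as 11.1% of all genes did, while with the replicate block *C1qc* had 0.0439. The intervals were wide, from -5.46 to 0.86 for *C1qb*.

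Across CD103-CD11b+ libraries the C1q chains kept a narrow ratio to each other. *C1qa* took between 23.1% and 29.3% of the C1q counts, *C1qb* between 37.4% and 44.1% and *C1qc* between 28.7% and 37.5%, over 118 to 581 counts a library. The summed C1q level itself was 113, 147 and 50.6 CPM in the WT and 110, 138 and 60.2 CPM in the cKO libraries, highest in replicate 2 and lowest in replicate 3 of both genotypes. Since these are bulk libraries, fewer C1q+ cells and less C1q RNA per cell cannot be told apart, here or in the subset comparisons above.

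The exceptional cKO CD103+CD11b- replicate 2 held 76 C1q counts, or 18.5 CPM, against 3 and 2 counts in the other libraries of its group. *C1qa* took 27.6% of them (95% Wilson interval from 18.8% to 38.6%), *C1qb* 40.8% (from 30.4% to 52.0%) and *C1qc* 31.6% (from 22.2% to 42.7%). Each share lies within the range of the CD103-CD11b+ libraries. In percent of the mean of the cKO CD103-CD11b+ DCs, this library was at 20.5% for *C1qa*, 18.3% for *C1qb*, 16.1% for *C1qc*, 21.02% for *Mertk*, 7.58% for *Fcgr1* and 107% for *Cd163*, but at only 6.71% for *Itgam*, which the gate selects against. A set of 1123 genes other than these 9 was called higher in WT CD103-CD11b+ DCs by over 3 on the log2 scale. Its summed level reached 23.4% in this library, and 12.7% and 8.26% in replicates 1 and 3 of the group. In WT CD103+CD11b- replicates 1 to 3, from which the set was partly chosen, it was 2.99%, 2.155% and 14.2% of the WT CD103-CD11b+ mean. Unevenness among replicates was thus seen in the WT group as well. Within the cKO CD103+CD11b- group, the summed level of 12 epithelial genes was also highest in replicate 2, at 121.5 CPM against 29.5 and 26.6 CPM. The part that cells of another gate or epithelial cells have in these values was not tested.

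*Mertk* and *Maf* varied most against C1q. Per 100 C1q counts, the 6 CD103-CD11b+ libraries held from 4.90 to 9.77 counts of *Fcgr1*, from 2.45 to 14.4 of *Cd163* and from 13.9 to 39.7 of *Cd14*. The *Fcgr1* values rest on only 11 to 35 counts a library, so their spread was not separated from counting error. *Mertk* ranged from 8.47 to 93.1 and *Maf* from 4.86 to 54.3. The 2 wide ranges came from different libraries: *Mertk* was highest in WT replicate 3 and lowest in cKO replicate 3, and *Maf* was highest in WT replicate 2 and lowest in WT replicate 1.

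**Figure D3:**
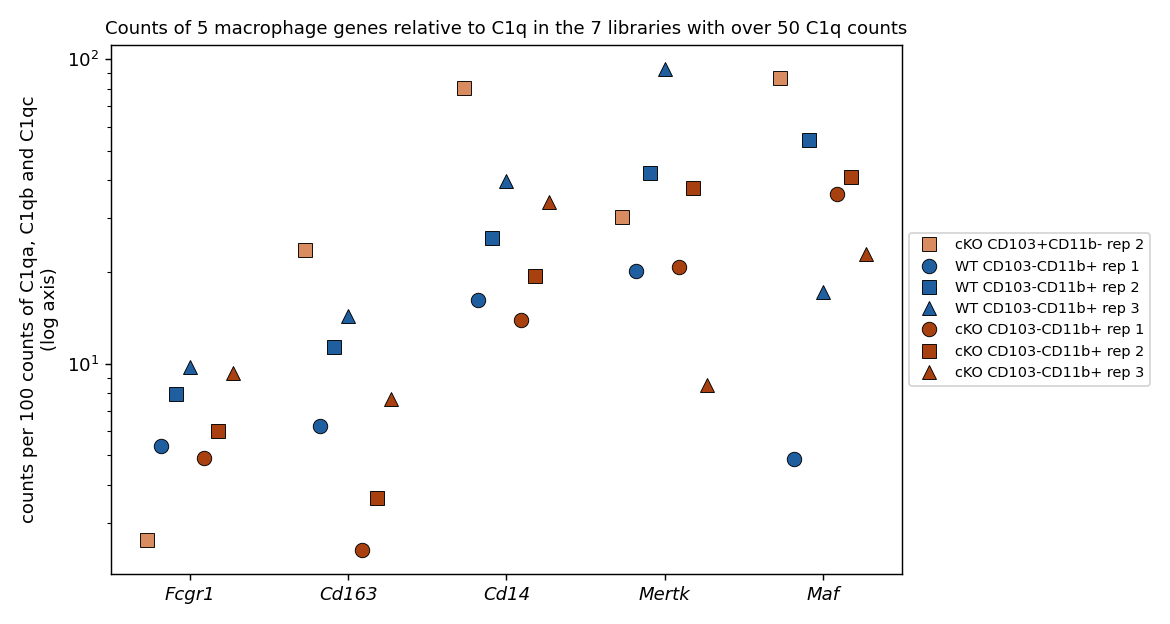
Counts of 5 genes per 100 counts of *C1qa*, *C1qb* and *C1qc* together (log axis) in the 7 libraries with over 50 C1q counts, with color for the group and shape for the replicate. *Fcgr1* spans from 4.90 to 9.77 over the 6 CD103-CD11b+ libraries, whereas *Mertk* spans from 8.47 to 93.1.

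Deviations of each library from its group mean on the log2 scale are given as a description, over 12 libraries that share depth and normalization. *C1qa* correlated with *C1qb* at r = 0.95 and with *C1qc* at r = 0.88, and at r = 0.74 and 0.69 over 11 libraries, with the exceptional cKO library left out. *Cd163* stood between 0.69 and 0.88 with the chains, but between 0.21 and 0.60 without that library. *Fcgr1* stood between 0.63 and 0.80, and between 0.39 and 0.84 without it. *Cd14* went from between 0.55 and 0.63 to between 0.20 and 0.38, and *Maf* from between 0.36 and 0.46 to between 0.47 and 0.71. *Mertk* went from between 0.41 and 0.63 to between -0.00 and 0.55. *Lyz2* had r from -0.40 to -0.07 with the chains, and from -0.53 to -0.01 without that library.

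The genes most like the C1q mean among 12638 genes of at least 5 CPM rested on it as well. Over 12 libraries they were *Gm38253* (r = 0.939), *Clec4n* (r = 0.922), a lectin receptor for fungal sugars, *Adgre4* (r = 0.904), *Tmem216*, *Ikzf4*, *Xaf1*, *Chst14*, *Il15ra*, *Mrc1* (r = 0.876), the mannose receptor of macrophages, and *Lgals4* (r = 0.871). With that library left out their r fell to between 0.505 and 0.868, and 0 of the 10 were still among the 10 highest.

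Compared per exon length, the macrophage genes spanned a wide range within CD103-CD11b+ DCs. In WT libraries *Lyz2* led with 215 ± 19.4 CPM per kb (SD, n = 3), followed by *C1qb* at 38.2 ± 16.9, *C1qa* at 25.9 ± 11.03, *C1qc* at 18.1 ± 9.94, *Cd14* at 14.7 ± 6.30, *Mertk* at 10.2 ± 4.61, *Maf* at 3.81 ± 5.11, *Fcgr1* at 2.92 ± 1.39 and *Cd163* at 1.89 ± 1.004 CPM per kb. The library ranges of neighbours in this order overlapped, except that *Lyz2* stood above all others. On this scale *C1qb* was level with *Zbtb46*, at 33.8 ± 9.53 CPM per kb. The order of the means was the same in cKO CD103-CD11b+ DCs, where *Fcgr1* also stood clear of *Cd163*. In WT CD103+CD11b- DCs *C1qb* was at 0.554 ± 0.343 and *Zbtb46* at 35.1 ± 5.18 CPM per kb.

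*Lyz2* has a close copy, *Lyz1* (ENSMUSG00000069515, chr10:117287797-117292868), which Paneth cells of the gut epithelium express. Their coding sequences are shown because reads from one can fall on the other. Both runs give the initial 120 coding bases from the start codon, 5′ to 3′, with the bases that differ in capitals.
*Lyz2*: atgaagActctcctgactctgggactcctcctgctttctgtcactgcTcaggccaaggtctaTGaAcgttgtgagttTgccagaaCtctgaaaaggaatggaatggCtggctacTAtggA
*Lyz1*: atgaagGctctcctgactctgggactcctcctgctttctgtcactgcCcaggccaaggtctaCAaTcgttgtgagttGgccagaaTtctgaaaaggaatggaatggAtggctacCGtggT

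These 120 bases hold 11 of the 22 differences in 444 coding bases, an identity of 95%, and the longest identical run is 118 bases. Of all 50-base stretches of the *Lyz2* transcript, 15.4% are also in *Lyz1*, so part of the reads could not be placed and the split between the genes is uncertain. The deposited counts nevertheless moved apart. *Lyz1* was at 10.3, 11.2 and 16.8 CPM in WT CD103+CD11b- DCs and at 67.7, 126 and 89.0 CPM in WT CD103-CD11b+ DCs, and was called higher at 2.86 on the log2 scale (SE 0.36, adjusted p = 0.000676). In cKO mice it was called at 2.99 (SE 0.36, adjusted p = 0.000273). Of 8 Paneth cell genes searched, *Lyz1* included, 5 were at 0 in the WT CD103+CD11b- and 3 in the WT CD103-CD11b+ libraries, and the defensin genes *Defa17* and *Defa30* were at 0 in all 12. *Habp2*, another of the 8, had no count in any CD103+CD11b- library and 21.3, 6.66 and 6.98 CPM in WT CD103-CD11b+ DCs, where it was called (adjusted p = 0.0437). The part of Paneth cell RNA in the *Lyz1* difference was not tested.

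Other macrophage genes gave the surroundings of these results. Of 60 further macrophage genes, 57 were tested, and 29 were called higher and 5 lower in WT CD103-CD11b+ than in WT CD103+CD11b- DCs, with a median log2 fold change of 1.41 against 0.07 over all genes. Without replicate 1 or 2 of the WT CD103+CD11b- DCs the calls were 19 and 14 higher, and 3 lower each time. *Itgam*, the sort marker itself, was higher by 4.38 (SE 0.30, adjusted p = 1.55e-05). *Pld3*, a lysosomal nuclease, was higher by 2.56 (SE 0.28, adjusted p = 0.000296), and *Tspan14* by 0.83 (SE 0.10, adjusted p = 0.000705). *Aif1*, which encodes the macrophage actin-binding protein Iba1, went the other way, by -1.24 (SE 0.15, adjusted p = 0.000598). In cKO mice 27 were called higher and 4 lower. The list's summed level was between 3002 and 3865 CPM in WT CD103+CD11b-, between 2952 and 3365 in cKO CD103+CD11b-, between 4254 and 6249 in WT CD103-CD11b+ and between 4442 and 5599 CPM in cKO CD103-CD11b+ libraries. *Folr2*, a marker of long-lived tissue macrophages, was at 0 in all 12 libraries, and *Vsig4*, *Marco* and *Cd5l* were at 0 in all WT libraries. The part of macrophages carried through the sort in the subset differences was not tested.

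Between the genotypes, 2 of the 57 genes were called higher and none lower in cKO CD103-CD11b+ DCs, where 1.61% of all genes were called. *Adgre1*, the F4/80 antigen, went from 50.1, 76.0 and 29.7 CPM in WT to 140, 236 and 215 CPM in cKO libraries, a log2 fold change of 1.93 (SE 0.38, adjusted p = 0.0336). *Aif1* went from 16.8, 15.7 and 16.0 to 22.2, 29.7 and 31.6 CPM, a log2 fold change of 0.78 (SE 0.15, adjusted p = 0.0326). Neither was called in a fit to the 6 libraries of this comparison alone (adjusted p = 0.122 for *Adgre1* and 0.229 for *Aif1*), and with 1 of the 12 libraries left out the adjusted p ran from 0.0298 to 0.0952 for *Adgre1* and from 0.0179 to 0.103 for *Aif1*. *Csf1r*, the receptor for the macrophage growth factor M-CSF, was at 275, 332 and 216 CPM in WT and at 206, 266 and 166 CPM in cKO libraries of this subset (log2 fold change -0.36, SE 0.55, adjusted p = 0.776).

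In CD103+CD11b- DCs 1 of the 57 genes was called higher and 4 lower in cKO mice, where 1.02% of all genes were called. With 1 library left out the counts ran from 0 to 1 and from 0 to 4. *Sirpa*, the receptor for the CD47 signal that restrains uptake, fell from 284, 214 and 137 CPM to 47.3, 40.3 and 5.08 CPM, a log2 fold change of -2.74 (SE 0.53, adjusted p = 0.0420). *Tcn2* fell by 1.58 (SE 0.24, adjusted p = 0.0129), *Hpgds*, which makes prostaglandin D2, by 1.59 (SE 0.27, adjusted p = 0.0243) and *Acp5* by 1.08 (SE 0.22, adjusted p = 0.0482), while *Tbxas1*, the thromboxane synthase, rose by 1.02 (SE 0.19, adjusted p = 0.0329). Of the 12 libraries left out in turn, *Tcn2* kept its call in 10, *Hpgds* in 7, *Tbxas1* in 5, *Sirpa* in 3 and *Acp5* in 1, with adjusted p of at most 0.202. *Csf1r* was at 47.5, 25.6 and 49.1 CPM in WT and at 1.55, 10.98 and 0 CPM in cKO libraries without overlap, and did not pass (log2 fold change -3.18, SE 0.69, adjusted p = 0.0608). Its highest cKO value was again in replicate 2.

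**Figure D4:**
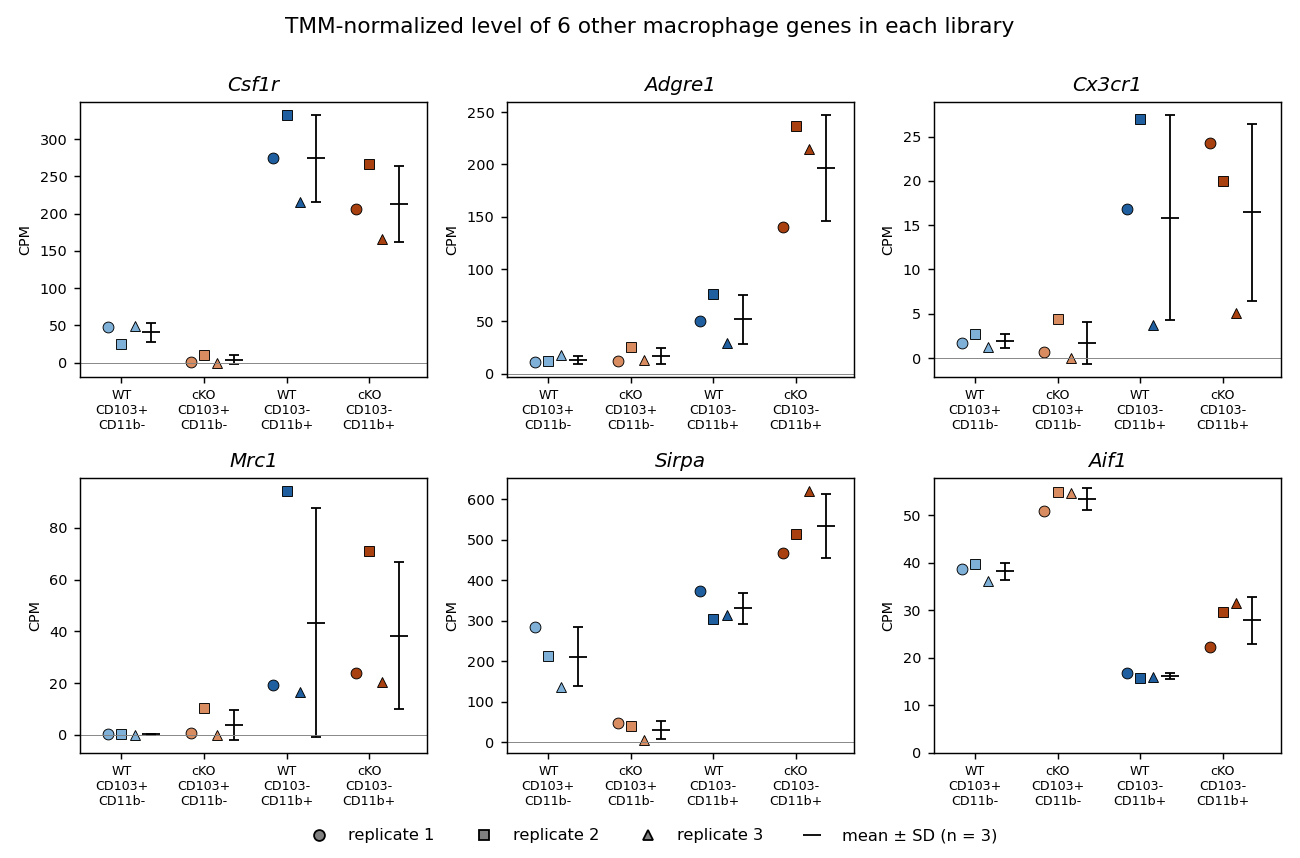
Level in CPM (linear axis) of 6 other macrophage genes in the 12 libraries, with points, shapes and mean ± SD as for the 9 genes. *Adgre1* reaches from 140 to 236 CPM in cKO CD103-CD11b+ libraries and stays at or under 76.0 CPM elsewhere, whereas *Csf1r* and *Mrc1* do not separate the genotypes in CD103-CD11b+ DCs.

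The pathways in which the 9 genes act were followed through lists of their partners. Their counts stand against 11.8% of all genes called higher and 7% lower in the WT subset comparison, 9.26% and 6.81% in the cKO one, and 1.61% and 1.02% called between genotypes in CD103-CD11b+ and CD103+CD11b- DCs. At the last 2 shares a list of this size is likely to hold no call, so that none between genotypes is no result about a list. Of 19 tested complement genes beyond C1q, 9 were called higher and none lower in CD103-CD11b+ DCs in each genotype, and none between genotypes in either subset. In WT mice *C5ar2*, a receptor for the C5a fragment, was higher by 3.55 (SE 0.65, adjusted p = 0.00822), and *Lrp1*, which binds C1q-coated targets through calreticulin, by 3.34 (SE 0.74, adjusted p = 0.0126). *Cfp*, which encodes properdin, a stabilizer of the alternative pathway, was higher by 0.74 (SE 0.17, adjusted p = 0.0164).

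Among 25 genes of apoptotic cell uptake, 12 were called higher and 1 lower in WT CD103-CD11b+ DCs, 10 higher and 1 lower in cKO CD103-CD11b+ DCs, and none between genotypes. *Pros1*, a ligand that bridges MerTK to dying cells, was at 13.3, 7.55 and 15.8 CPM in WT CD103+CD11b- DCs and at 55.4, 115 and 94.8 CPM in WT CD103-CD11b+ DCs, a difference of 2.84 on the log2 scale (SE 0.50, adjusted p = 0.00433). *Dock1*, which drives engulfment, was higher by 3.38 (SE 0.57, adjusted p = 0.00355), *Itgb5*, a chain of a receptor for dying cells, by 3.45 (SE 0.69, adjusted p = 0.00822), and *Nr1h3*, the nuclear receptor LXRα that senses the cholesterol taken up, by 3.05 (SE 0.57, adjusted p = 0.00593). Of the receptors related to MerTK, *Axl* was called higher in WT mice (adjusted p = 0.0301) and so was *Tyro3* (adjusted p = 0.0205), both named after their values were seen, while *Mertk*, at 3.29 on the log2 scale, did not pass.

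Of 7 tested Fc receptor genes besides *Fcgr1*, 4 were called higher and 1 lower in WT and 5 higher and 1 lower in cKO CD103-CD11b+ DCs, and none between genotypes. The activating receptors *Fcgr3* and *Fcgr4* were higher in WT mice by 3.75 (SE 0.62, adjusted p = 0.00305) and 2.45 (SE 0.55, adjusted p = 0.0139), and the inhibitory receptor *Fcgr2b* by 2.40 (SE 0.37, adjusted p = 0.00228). *Fcrla*, a B cell gene of the same family, was lower by 2.88 (SE 0.66, adjusted p = 0.0148), from a mean of 84.3 to 11.3 CPM.

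Among 14 genes of lipopolysaccharide sensing, in which CD14 acts, 4 were called higher in CD103-CD11b+ DCs in each genotype. In WT mice *Tlr4*, the signalling receptor to which CD14 passes its ligand, was higher by 2.57 (SE 0.57, adjusted p = 0.0127), *Tlr2*, which CD14 also serves, by 2.23 (SE 0.18, adjusted p = 3.96e-05) and *Irak3*, an inhibitor of the pathway, by 3.36 (SE 0.90, adjusted p = 0.0270). *Myd88*, the adaptor, differed by 0.37 (SE 0.09, adjusted p = 0.0213), under the limit on fold. Between genotypes only *Tlr2* was called, lower by 1.04 in cKO CD103+CD11b- DCs (SE 0.19, adjusted p = 0.0304), from 7.18, 7.55 and 8.89 to 4.22, 3.66 and 3.52 CPM.

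For haem and iron handling, the pathway of CD163, 2 of 15 genes were called higher in WT and 4 in cKO CD103-CD11b+ DCs. The WT share is near the 11.8% of all genes called higher there. *Slc40a1*, the iron exporter ferroportin, was higher in WT mice by 5.47 (SE 1.25, adjusted p = 0.0145), and *Bach1*, the haem-sensing repressor, by 1.77 (SE 0.32, adjusted p = 0.00470). *Slc48a1*, which carries haem out of the lysosome, was the only gene of this list called between genotypes, at 69.7, 80.3 and 68.3 CPM in WT and 38.4, 43.3 and 28.0 CPM in cKO CD103-CD11b+ DCs, which is -0.98 on the log2 scale (SE 0.16, adjusted p = 0.0159).

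Markers of other cells were counted in the same way. Of all genes tested, 11.8% were called higher and 7% lower in the WT subset comparison, and 9.26% and 6.81% in the cKO one. Between genotypes 1.61% were called in CD103-CD11b+ and 1.02% in CD103+CD11b- DCs. Counts near these shares are no result about a list. Of 12 tested monocyte genes, 6 were called higher and 1 lower in WT and 4 higher in cKO CD103-CD11b+ DCs. The summed monocyte level was between 888 and 1130 CPM in WT CD103+CD11b-, 684 and 968 in cKO CD103+CD11b-, 1591 and 2985 in WT CD103-CD11b+ and 1285 and 1818 CPM in cKO CD103-CD11b+ libraries, with *Chil3* at 0 throughout. The summed level of 10 neutrophil genes was at most 9.76 CPM in CD103+CD11b- libraries and between 54.7 and 167 CPM in CD103-CD11b+ libraries, 4 of 7 tested were called higher there in WT and 3 in cKO mice, and *Csf3r*, the receptor for G-CSF, was higher in cKO than in WT CD103-CD11b+ DCs by 1.44 (SE 0.29, adjusted p = 0.0353). The summed B cell level was 162, 357 and 190 CPM in WT and 776, 443 and 201 CPM in cKO CD103-CD11b+ libraries, which overlap. Between the subsets, 2 of 11 B cell genes were called higher and 1 lower in WT and 6 higher in cKO CD103-CD11b+ DCs. In these cKO DCs *Ms4a1*, which encodes CD20, was higher than in WT by 3.72 (adjusted p = 0.00455) and *Cd22* was also called (adjusted p = 0.00521), at 26.2, 34.3 and 22.4 CPM in WT and 136, 116 and 79.0 CPM in cKO libraries. Of 10 T cell genes none was called in any comparison. Of 13 pan-DC genes none was called between genotypes and 2, *Snx22* and *Flt3*, were called lower in CD103-CD11b+ DCs of each genotype. Of 7 plasma cell genes *Prdm1* alone was called higher in CD103-CD11b+ DCs in each genotype, and of 12 epithelial genes *Vil1* and *Krt8* were called higher and *Cdh17* lower in WT CD103-CD11b+ DCs, and *Cdh17* and *Epcam* higher in cKO CD103-CD11b+ DCs. Between genotypes *Epcam* was lower in cKO CD103+CD11b- DCs by 1.88 (adjusted p = 0.0432) and *Cdh17* higher in cKO CD103-CD11b+ DCs by 4.08 (adjusted p = 0.00305). The part of these cells in the results for the 9 genes was not tested.

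Of 13 cDC2 genes, 6 were called between the genotypes in CD103+CD11b- DCs, where 1.02% of all genes were. With each of the 12 libraries left out in turn *Clec4a4* kept its call in 12, *Cd7* in 11, *Irf4* in 8, *Clec12a* in 5, *Sirpa* in 3 and *Cd209a* in 2. Of 13 cDC1 genes, 10 were called lower in WT and 11 in cKO CD103-CD11b+ DCs, and between genotypes *Itgae* (CD103) was lower by 1.89 (adjusted p = 0.0301) and *Tlr11* higher by 1.56 (adjusted p = 0.0110) in cKO CD103-CD11b+ DCs. Of 13 cDC2 genes, 4 were called higher and 1 lower in WT and 9 higher in cKO CD103-CD11b+ DCs. In cKO CD103+CD11b- DCs 5 of them were called lower. *Irf4*, a factor that cDC2 need, fell by 1.78 (adjusted p = 0.0241), *Cd7* fell by 2.21 (adjusted p = 0.00888), *Cd209a* fell by 2.80 (adjusted p = 0.0470). The others were *Sirpa*, described above, and *Clec4a4* (adjusted p = 0.00490), from between 4.805 and 6.50 CPM to 0, 0.488 and 0.391 CPM. *Clec12a* rose in cKO DCs of both subsets, by 0.86 (adjusted p = 0.0398) and 2.28 (adjusted p = 0.000488), and *Clec4a4* rose by 1.71 in CD103-CD11b+ DCs (adjusted p = 0.0398).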

How the data were processed

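The authors trimmed the reads (Trim Galore), mapped them with STAR 2.7 to mm10, removed reads of low mapping quality and duplicates, and counted them on Ensembl genes with HTSeq without regard to strand. They deposited raw read counts per gene, 1 file per sample, from small numbers of sorted cells amplified before sequencing. GENCODE M21 supplied gene symbols and positions (53706 of 53801 identifiers matched). Summary lines of the counter, where between 59.7% and 66.1% of reads fell on no gene, were left out. The 9 genes and all gene lists were chosen with earlier results of these data known.

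A gene was kept if any of the 12 samples had at least 5 counts of it, and kept genes were tested by edgeR 4.0.16 (quasi-likelihood, R 4.3.3, limma 3.58.1) in 1 model of the 4 groups, with TMM normalization and Benjamini-Hochberg adjustment over all 20580 genes. A call needed both FDR below 0.05 and more than 1.3-fold change. Correlations used log2 CPM with a prior count of 2. Genes named beside the 9 were *Cbfb*, *Lyz1*, cell type checks, list genes called between genotypes, up to 4 per list with the smallest p in the WT subset comparison, and the 10 genes most like C1q.

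Alternatives were DESeq2 1.42.0, RLE normalization, other count filters, fits to 6 samples, replicate blocks, no fold limit and leaving out each sample. Correlations and count ratios leaving out 1 library, cKO CD103+CD11b- replicate 2, were added after seeing the data. So were lower bounds for genes left at 0 counts and leave-out counts for the other macrophage genes. Deviations of same-numbered samples correlated at r = 0.112, 0.321 and 0.354 across genes between the cKO subsets, so the numbers were taken to pair these, whereas the other comparisons each had a pair under 0.1. On simulated counts for cKO against WT CD103-CD11b+ DCs, the test recovered 49% of 200 genes changed by 5-fold (19611 genes) and 5.5% of 200 changed by 2-fold (19625 genes). Some genes of the lists are not reported here.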

Additional observations from a re-analysis of the deposited data

Results flagged for a closer look

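None of the 9 genes was called for a genotype effect that differed between the subsets, by the interaction term of edgeR's quasi-likelihood test. As only 0.651% of all genes were called, this is no result about the 9 genes. Some of their intervals were wide, such as from -5.46 to 0.86 for *C1qb*. Of 230 other genes of the accompanying lists that were tested, 6 were called (2.61%, against 0.651% of all genes). The lists were chosen with earlier results of these data known, so this higher share is no result about the lists. The values of the 6 genes are differences of the log2 fold change (cKO against WT) in CD103-CD11b+ DCs minus that in CD103+CD11b- DCs. *Hpgds*, the prostaglandin D synthase, differed by 2.72 (adjusted p = 0.0130), falling in CD103+CD11b- DCs and standing at 1.13 in CD103-CD11b+ DCs. *Cd300lf*, a lipid receptor of the apoptotic cell uptake list, differed by 2.71 (adjusted p = 0.0406). The lectin receptor *Clec4a4* differed by 5.98 (adjusted p = 0.00685), a fitted size that depends on 3 counts in the cKO CD103+CD11b- group, and *Clec12a* by 1.42 (adjusted p = 0.0295). The B cell receptor partner *Cd22* differed by 2 (adjusted p = 0.0474), and *Cdh17*, a cadherin of the epithelial list, by 4.57 (adjusted p = 0.0134). With each of the 12 libraries left out in turn, *Clec4a4* kept its call in 12, *Hpgds* and *Cdh17* in 11, *Clec12a* in 4, *Cd300lf* in 2 and *Cd22* in 1, while the calls over all genes ran from 29 to 210 against 134.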

How the results depend on the processing

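C1q and *Fcgr1* carried the subset result. *C1qc* and *Fcgr1* were called in both genotypes under each of the 19 alternatives that tested them. *C1qb* was called under 19 in WT and 18 in cKO mice, *C1qa* under 17 and 14, and *Cd163* under 11 in WT mice. *Fcgr1* had at most 3 counts in any CD103+CD11b- library. It thus passed the 5-count filter only through the CD103-CD11b+ group, where it is high, and its calls are not independent of that. Of the 9 genes, 5 were called higher in WT and 4 in cKO CD103-CD11b+ DCs, against 0 and 1 where 5 or more counts were required in every sample, a filter that kept only *Maf*, *Cd14* and *Lyz2*. With 1 library left out, between 3 and 5 were called in WT and between 2 and 5 in cKO mice. The replicate block gave 6 and 5, and the replicate block within genotype 7 and 7. No gene was called between genotypes with the block, and the correlation of same-numbered libraries in these comparisons was between -0.0911 and 0.422. Over all genes, cKO against WT gave 331 calls in CD103-CD11b+ and 210 in CD103+CD11b- DCs, 849 and 522 with the replicate block, 1054 and 621 with DESeq2, and 27 and 205 from the 6 samples of each comparison alone. With 1 library left out they ran from 121 (without cKO CD103-CD11b+ replicate 2) to 517 (without WT CD103-CD11b+ replicate 1) and from 46 (without WT CD103+CD11b- replicate 1) to 241. For the difference of the genotype effect the calls were 134, with the block 330 and with DESeq2 461.

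Many genotype values changed sign, among them values that were not near 0. In CD103-CD11b+ DCs *C1qb* was -0.00 with no filter and -0.01 with DESeq2. The difference of the genotype effect was 0.01 for *C1qa*, -0.12 for *Mertk* and 0.40 for *Maf* with the replicate block within genotype, and 0.44 for *Maf* with the replicate block. With 1 library left out, the cKO against WT values in CD103+CD11b- DCs ran from -5.30 to 1.15 for *C1qa*, -1.68 to 2.92 for *C1qb*, -3.81 to 6.05 for *Mertk*, -3.31 to 0.27 for *Fcgr1* and -2.51 to 1.43 for *Cd163*. In CD103-CD11b+ DCs they ran from -0.41 to 0.22 for *C1qa*, -0.30 to 0.30 for *C1qb*, -0.28 to 0.49 for *C1qc*, -0.45 to 0.24 for *Fcgr1*, -0.23 to 2.40 for *Maf*, -0.51 to 0.13 for *Cd14* and -0.32 to 0.31 for *Lyz2*. The difference of the genotype effect ran from -1.25 to 5.20 for *C1qa*, -2.92 to 1.68 for *C1qb*, -6.72 to 3.12 for *Mertk*, -0.46 to 3.10 for *Fcgr1*, -1.08 to 1.84 for *Maf*, -2.76 to 1.18 for *Cd163*, -0.15 to 0.61 for *Cd14* and -0.00 to 0.62 for *Lyz2*. *Maf* ran from -0.29, without replicate 2 of the WT CD103-CD11b+ DCs, to 2.63 between the WT subsets. Fitted values against groups left at 0 counts are no bounds, and apart from the filter and the samples left out the cause of these changes was not tested. At this depth 3 counts are 0.485 to 1.53 CPM, so differences among CD103+CD11b- libraries in C1q or *Fcgr1* were mostly not measurable.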
